A study of Mus musculus with 29 samples.

Results

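EGFP-positive podocytes of toxin-treated mice were compared between day 7 (n = 4 mice) and day 4 (n = 4 mice), which is 8 of the 29 arrays of the series. The arrays were chosen by their labels alone: all samples sorted for EGFP at day 7 and all sorted for EGFP at day 4. Every mouse was a male Pod-hCD25T/G animal on the C57BL/6J background, aged 8 weeks. The treatment named in the labels is a heminephrectomy and then LMB2 at 25 ng per gram of body weight, and the days count from LMB2. EGFP day 0 (n = 4, before LMB2) and TdTomato cells at day 4 (n = 4) and day 7 (n = 2) are used for reference. LMB2 is an immunotoxin that binds human CD25. The labels do not say what the colours stand for. As the study is known, TdTomato cells are the CD25-bearing targets of the toxin and EGFP cells are neighbouring podocytes without the target, so the comparison asks what is added as injury reaches cells the toxin does not target, and what of day 4 does not last. Mice of different days are different animals, and whether day 0 mice had the heminephrectomy is not given. Cells of 1 sort are pooled, so fewer cells of a kind and less RNA per cell cannot be told apart.

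Podocytes are the epithelial cells that wrap glomerular capillaries. Their interdigitating foot processes are joined by the slit diaphragm, a protein sheet built on nephrin, and are held in shape by an actin skeleton that anchors through integrins to the glomerular basement membrane. Injured podocytes flatten, rebuild actin into contractile cables, take up the intermediate filament desmin and secrete matrix and inflammatory proteins.

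Levels are given as the log2 of the spot signal over the 75th percentile of its own array, so 0 is the level that 3 in 4 spots do not reach and 1 unit is a doubling. Differences are day 7 minus day 4 on that scale with the standard error (SE) of limma's moderated fit, and a gene is called changed at a Benjamini-Hochberg adjusted p under 0.05 over all 15626 genes. On the 8 arrays 48.2 to 55.9% of spots were well above background, and no spot was saturated. The authors' own deposited values for the EGFP array of mouse MC221 at day 7 did not match its scanner data (correlation 0.9863, against 0.9932 with the EGFP array of MC943), so which sample that array holds is not settled. The TdTomato array of MC221 at day 7 did not match either (0.9945, against 0.995 with MC791). Counts without MC221 are given beside the main ones for the totals and for some of the gene lists. The arrays lie on 4 slides. Slides 1 to 3 hold both days and the fourth holds 1 day 4 array.

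From day 4 to day 7, 463 genes rose (2.96% of those tested) and 268 fell (1.72%). The rises were larger: their median was 1.63 and 160 were at least 4-fold, whereas the median fall was -0.83 and 19 were at least 4-fold. The median over all genes was -0.07. The 4 day 7 values and the 4 day 4 values did not overlap for 430 of the genes that rose and 253 of those that fell. Over all 15626 genes, called or not, they did not overlap for 784 with day 7 higher and 1043 with day 7 lower. Without both MC221 arrays 389 genes rose and 204 fell. With slide as a block 791 rose and 1053 fell, and within slides 1, 2 and 3 taken singly 462 of the 463 rises and 265 of the 268 falls kept their direction. The genes were called on these same arrays, so neither the lack of overlap nor the kept direction is a separate test. The number of falls was the less settled count: it was 174 without day 4 mouse MC151, 166 without day 4 mouse MC823 and 153 without day 7 mouse MC943.

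**Figure D1:**
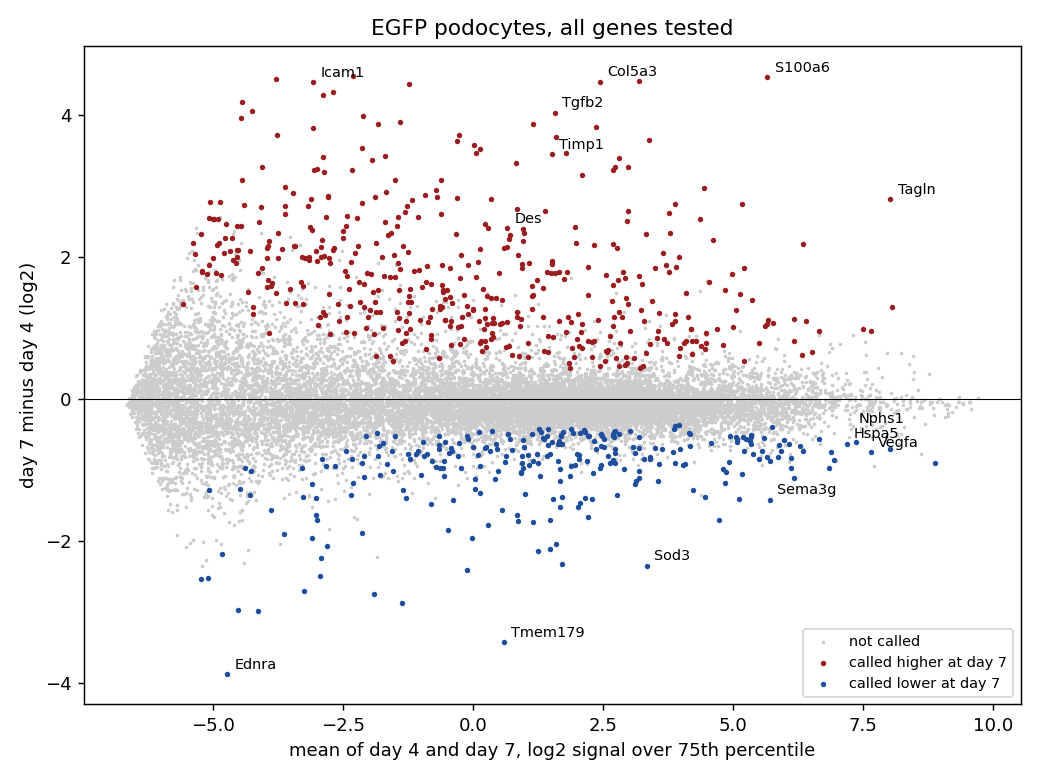
Each point is 1 of 15626 genes in EGFP podocytes, with its mean level over both days on the x axis (log2 signal over the array's 75th percentile) and day 7 minus day 4 (log2) on the y axis. Red points are the 463 genes called higher and blue points the 268 called lower; rises reach further from 0 than falls, and Nphs1 lies among the genes not called.

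The 3 injury markers climbed together. Desmin (Des), the intermediate filament of muscle and of injured podocytes, read -0.91, -0.61, -0.64 and -0.03 in the 4 day 4 mice and 1.30, 1.64, 2.07 and 2.40 in the 4 day 7 mice. Every day 7 value lay above every day 4 value, and the rise was 2.40 (SE 0.26, 5.29-fold, limma adjusted p = 1.6e-06). Col5a3, a chain of the fibril-regulating type V collagen, read -0.02, -0.85, 1.41 and 0.27 at day 4 and 4.64, 4.88, 4.17 and 5.01 at day 7. Again no values overlapped, and it rose by 4.47 (SE 0.45, 22.2-fold, limma adjusted p = 5.6e-07).

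Timp1, a secreted inhibitor of matrix metalloproteinases, read 0.01, -1.18, 0.59 and -0.24 at day 4 and 3.24, 3.24, 2.89 and 3.59 at day 7. It rose by 3.45 (SE 0.33, 10.9-fold, limma adjusted p = 2.3e-07), with all 4 day 7 mice above all 4 day 4 mice. Both secreted products were already above day 0 by day 4: Col5a3 averaged -3.57 at day 0 and 0.20 at day 4, and Timp1 -2.52 and -0.21. Des averaged -1.63 at day 0 and -0.55 at day 4, a difference of 1.08 that did not pass the test (limma adjusted p = 0.056). The earlier differences of Col5a3 and Timp1 were 3.77 and 2.31 (limma adjusted p = 4e-05 and 0.00033).

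**Figure D2:**
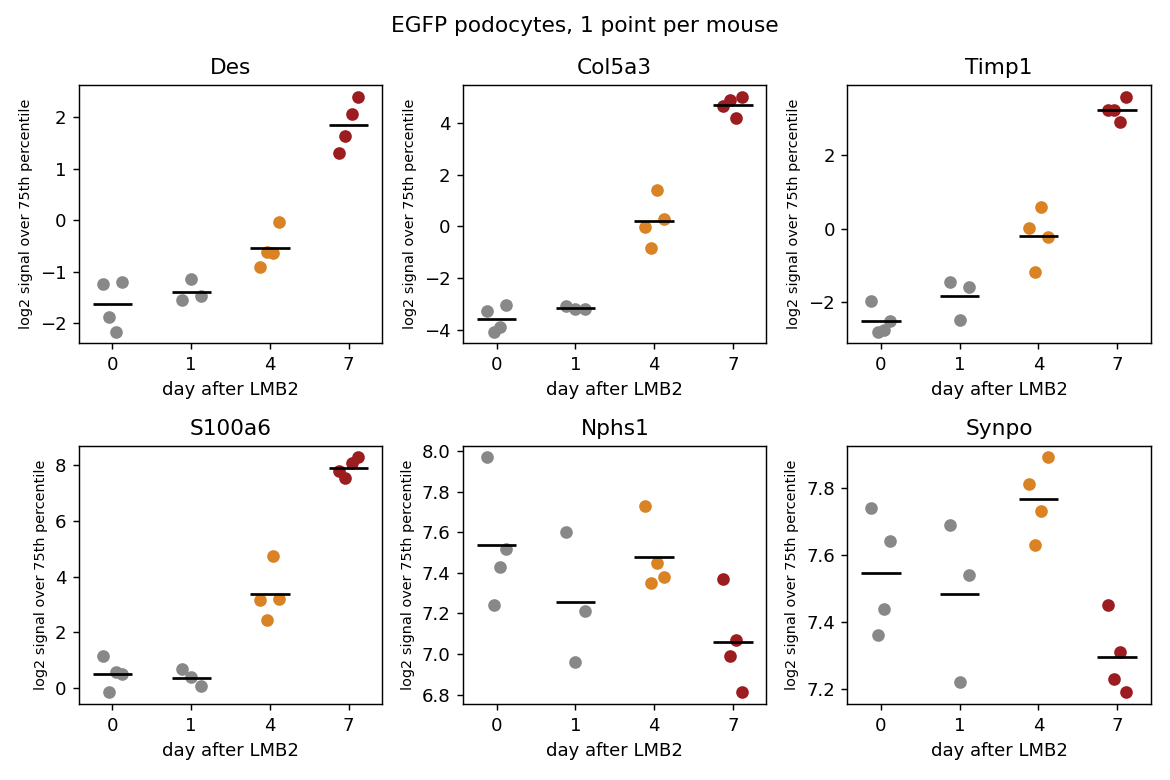
Each point is 1 mouse and each bar the mean of the EGFP podocytes of that day (x axis: day after LMB2; y axis: log2 signal over the array's 75th percentile). Des, Col5a3, Timp1 and S100a6 stand higher in all 4 day 7 mice than in any day 4 mouse, while Nphs1 and Synpo stay within about 1 unit.

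Slit diaphragm genes had small differences. Of 18 genes 0 were called by limma (4 had an unadjusted p under 0.05), and their median was -0.17. Nephrin (Nphs1), its main adhesion molecule, read 7.73, 7.35, 7.45 and 7.38 at day 4 and 7.37, 6.99, 7.07 and 6.81 at day 7. The days overlap at a single pair of values, and the difference of -0.42 (SE 0.17, 95% interval -0.76 to -0.07) did not pass (limma adjusted p = 0.2). With slide as a block it was called, at -0.40, and within slides 1, 2 and 3 it was -0.36, -0.36 and -0.51. For podocalyxin (Podxl), the charged coat protein of foot processes, the difference was -0.01 (95% interval -0.59 to 0.58), and for the transcription factor Wt1 -0.38 (-0.81 to 0.05).

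Synaptopodin (Synpo), an actin organizer of foot processes, read 7.81, 7.63, 7.73 and 7.89 at day 4 and 7.45, 7.23, 7.31 and 7.19 at day 7. All day 7 values lay below all day 4 values, but the difference of -0.47 missed the threshold (limma adjusted p = 0.051), and a second, dimmer probe of the gene went the other way at 0.75. Synpo was called in the authors' values (-0.48), with slide as a block (-0.43) and with the strict filter on dim probes (-0.47), and its sign turned as the mean of its probes (0.14). Of 27 genes of the foot process surface and skeleton 3 fell: Sema3g, a secreted semaphorin, by 1.42 (2.68-fold), Thsd7a, a membrane protein of the foot process, by 0.86, and the motor Myo1e by 0.73. Of 18 podocyte transcription factors Foxc2 alone fell, by 0.82. Thsd7a was not called without any 1 of day 4 mice MC692 and MC823 and day 7 mice MC221, MC824 and MC943 (-0.86 to -0.75). Foxc2 was not called without any 1 of day 4 mice MC151 and MC822 or of the 4 day 7 mice (-0.84 to -0.72).

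S100a6, a small calcium-binding protein, read 3.17, 2.45, 4.73 and 3.21 at day 4 and 7.78, 7.53, 8.07 and 8.28 at day 7, a rise of 4.53 (SE 0.43, limma adjusted p = 2.3e-07) with no overlap. Its day 0 mean was 0.52, and the difference from day 0 to day 4 was 2.87 (limma adjusted p = 0.00058). S100a3, measured in 2 of 4 day 4 mice, rose by 3.54 and S100a4 by 2.83, and these were the 3 called among 13 S100 genes.

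Crct1, a cornified envelope gene of epidermis, was close to the array's lower limit at day 0 (mean -6.99), reached 0.95 at day 4 and 5.44 at day 7, a rise of 4.48 between the last 2 days (limma adjusted p = 3.5e-05). Of 22 epidermal, desmosome and tight junction genes 7 rose, among them cingulin (Cgn, 3.71), a tight junction adaptor, and the arginine deiminase Padi4 (3.46). Their median was 0.24, and 4 were called without day 7 mouse MC943 and 6 without day 7 mouse MC221. Pkp1, a desmosome plaque protein, rose by 2.15, a call lost without day 4 mouse MC692 or day 7 mouse MC943.

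Several of the largest rises started from signal at background. Icam1, the leukocyte adhesion receptor, was not well above background in any day 4 mouse and read -0.28, -1.04, -1.84 and -0.24 at day 7, at least 12.4-fold higher (limma adjusted p = 1.1e-05). That bound sets the day 7 mean against the lowest signal well above background on each day 4 array. The kinase Pak3 was at least 7.66-fold higher and the synaptic vesicle primer Unc13c at least 4.38-fold. Epha6, an ephrin receptor, was measured in 2 of 4 day 4 mice and in all 4 at day 7 (rise 4.55, limma adjusted p = 2.2e-07). Lhfp (4.32) and the BMP regulator Bmper (4.28) were measured in 1 of 4 day 4 mice.

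In all, 24 genes (0.154% of those tested) were well above background in 4 of 4 day 7 mice and in 0 of 4 day 4 mice, and 4 (0.0256%) did the reverse. Of the 24, 21 were called higher, and 6 were below background in every day 0 mouse too. Besides Icam1 and Pak3 the brightest were Nrip3, at least 9.12-fold higher, the GTPase-activating protein Arhgap22 (7.25-fold), caveolin 1 (Cav1, 5.49-fold), the ubiquitin hydrolase Uchl1 (4.45-fold) and Ociad2 (4.33-fold), each figure a lower bound. Leaving out 1 array gave 25 to 55 such genes, with 55 without day 4 mouse MC692 and 53 without day 7 mouse MC824. The reverse switch was seen in 11 genes without day 4 mouse MC151, 19 without day 7 mouse MC791 and 7 without day 7 mouse MC824. A rule over fewer arrays is easier to meet, so these counts could only stay or rise.

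Of 29 contractile actin genes 15 rose and 1 fell, and their median was 1.07 against -0.07 for all genes. Without both MC221 arrays 12 rose and 1 fell. Transgelin (Tagln), an actin cross-linker of smooth muscle, was already bright and read 7.08, 5.81, 7.48 and 6.09 at day 4 and 9.86, 9.29, 9.24 and 9.31 at day 7, a rise of 2.81 (SE 0.34, 7.02-fold, limma adjusted p = 6.5e-06). Smooth muscle actin (Acta2) read -0.82, -0.41, 0.14 and -0.86 at day 4 and 2.08, 1.83, 2.52 and 2.33 at day 7 (2.68, SE 0.41, limma adjusted p = 0.00017). Neither gene's days overlapped. Calponin (Cnn1) was measured in 1 of 4 day 4 mice and in all 4 at day 7 and had a fitted rise of 3.41. Tropomyosin Tpm2 rose by 2.46 and filamin Flna by 2.18, while Csrp2, a muscle LIM protein, fell by 0.61.

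Smooth muscle and mesangial cells share some of these genes. Over the 14 tested markers of those cells, the summed linear signal was 60.2 to 186 times the 75th percentile in day 4 mice and 620 to 940 in day 7 mice, and 3 of 14 were called: Tagln, Acta2 and Des. Nearly all of that sum was Tagln: the other 13 summed to 3.4 to 7.41 at day 4 and 10.1 to 13.6 at day 7. The list's median was 0.10, and Itga8 (-2.04), Sfrp2 (-1.13), Art3 (-0.68) and Cspg4 (-0.65) were below 0, none of them called. The part of such cells in these rises was not tested. The mesangial receptor Pdgfrb differed by 0.39 (limma adjusted p = 0.69), and the smooth muscle myosin Myh11 was read well above background in 1 of 4 mice on each day.

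Of 38 integrin and focal adhesion genes 6 rose, led by the membrane coat proteins Cav2 (3.90) and Cav1, and the LIM proteins Pdlim7 (2.18) and Tes (1.42). Itgb1, the beta chain of the main podocyte integrins, rose by 1.01. Of 24 basement membrane genes 3 rose, among them Itgb1, and Col4a6 by 0.51. The call of Col4a6 was lost without any 1 of day 4 mice MC692 and MC823 and day 7 mice MC221, MC824 and MC943 (0.43 to 0.51). Of 36 interstitial matrix genes 8 rose and 1 fell, with fibronectin (Fn1, 2.82), fibulin 5 (Fbln5, 2.63), Col1a1 (2.56) and the cross-linking enzyme Loxl1 (1.77) after Col5a3, and Fbln1 at least 1.64-fold lower. Fn1 was measured in 1 of 4 day 4 mice, so its rise is a fitted value, and Fbln1 in 0 of 4 at day 7. With normexp background correction Fn1 (0.87) and Fbln1 (-0.29) were not called.

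Among 33 proteases and their inhibitors 6 rose and 1 fell. The urokinase receptor Plaur read -3.28, -5.86, -1.68 and -2.97 at day 4, the widest spread of the largest rises, and 0.39, 1.16, 0.88 and 1.57 at day 7 (4.44, SE 0.87, limma adjusted p = 0.0021). Mmp10, a stromelysin measured in 2 of 4 day 4 mice, rose by 3.99. Adamts2, the collagen propeptidase, fell by 2.11.

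The list of NF-kB components, targets and chemokines held 37 tested genes, of which 10 were called higher and 0 lower by limma (18 had an unadjusted p under 0.05), with a median of 0.70. Cxcl10, a chemokine for T cells, read 1.98, 0.28, 2.54 and 0.62 at day 4 and 5.09, 4.85, 3.72 and 4.80 at day 7 (3.26, SE 0.45, limma adjusted p = 4.5e-05). Csf1, the macrophage growth factor, rose by 3.46 and the NF-kB cofactor Bcl3 by 2.19. Of 18 myeloid markers 0 were called by limma (0 had an unadjusted p under 0.05), and 7 were below background on all 8 arrays (Lyz2, Itgax, C1qa, C1qc, Mrc1, Tyrobp and H2-Aa). The summed signal of the 18 was 32.8 to 51.2 at day 4 and 22.4 to 41.0 at day 7. Most of that sum was Itgam, and without it the sum was 7.53 to 13.2 and 7.52 to 11.7.

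Of 40 genes of the TGF-beta pathway 6 rose and 1 fell, with a median of 0.08. With day 7 mouse MC221 left out, 5 rose and 1 fell. The ligand Tgfb2 read -0.18, -1.29, 1.04 and -1.38 at day 4 and 3.42, 3.98, 2.90 and 4.03 at day 7 (4.03, SE 0.40, 16.4-fold, limma adjusted p = 4.7e-07), and Tgfb3 rose by 3.69. Of 27 kidney injury markers 10 rose, with a median of 0.81, among them the lectin Lgals3 (3.87) and clusterin (Clu, 2.74). The count was 7 without day 7 mouse MC221. Of 32 interferon-stimulated genes 4 rose, led by Parp14 (1.31), but 1 was called without both MC221 arrays and 2 without day 4 mouse MC823 or day 7 mouse MC221 or MC943.

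Growth and metabolic genes added single members. Cyclin D1 (Ccnd1), which drives entry into the cell cycle, rose by 2.64, and 3 of 31 cell cycle genes rose in all. They included the cell cycle inhibitor Cdkn2b (2.11) beside the kinase Cdk6 (1.65). The list's median was 0.03, with 18 of the 31 above 0, and entry into the cycle was not tested. Of 35 ATF4 target and serine synthesis genes 3 rose, led by the serine enzymes Psat1 (2.64) and Phgdh (1.85). Of 27 early response genes Fosl1 (2.33) and Myc (1.98) rose, Myc not with normexp background correction (0.37). Of 43 cytosolic ribosomal protein genes and 40 respiratory chain genes 0 were called by limma, and 0 had an unadjusted p under 0.05.

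**Figure D3:**
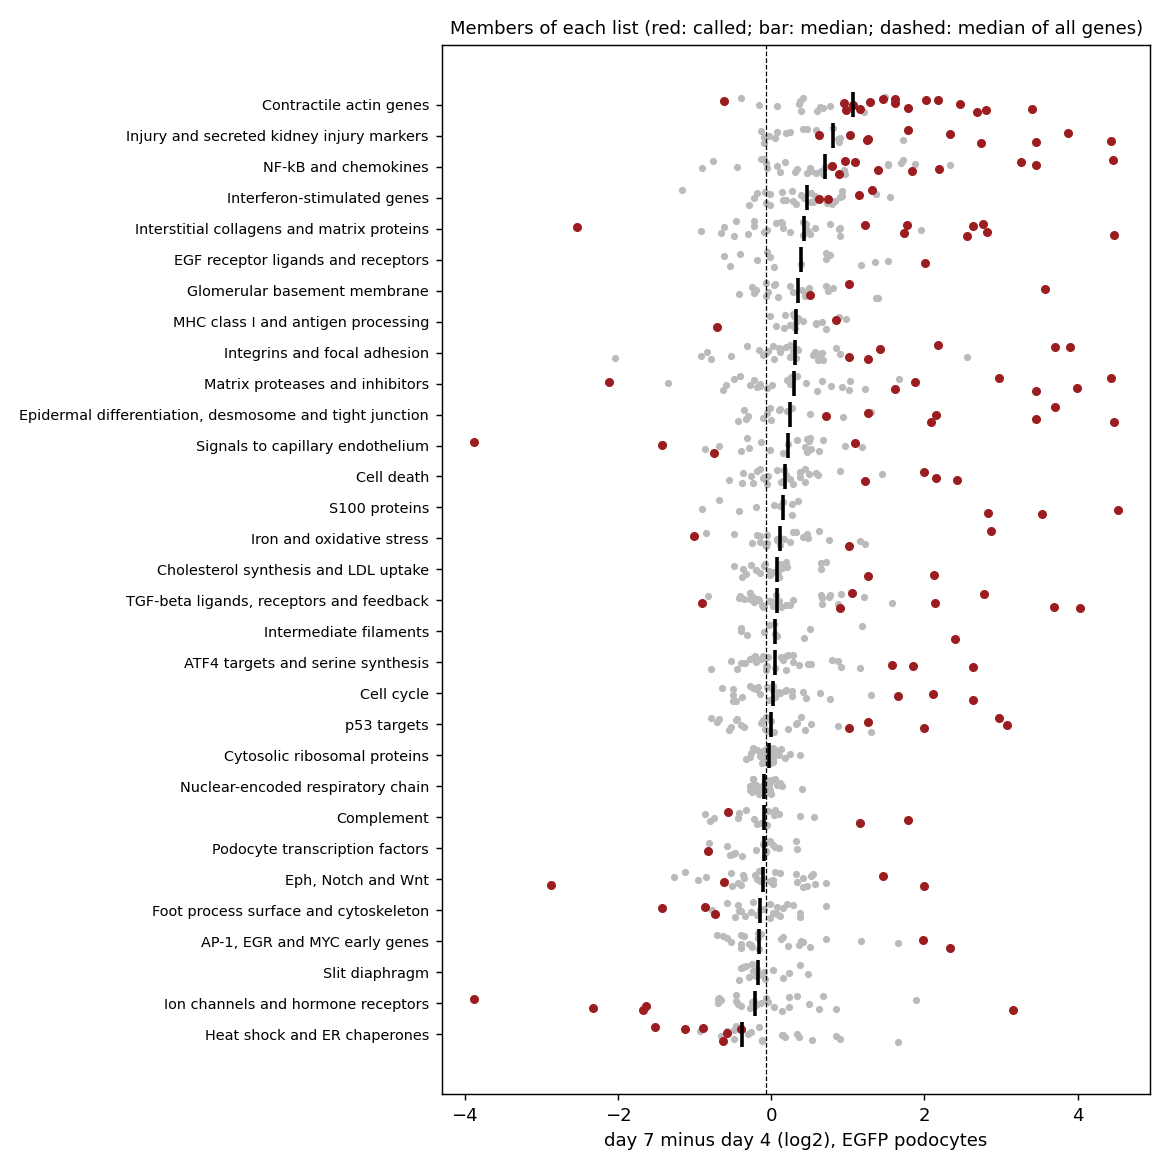
Each point is 1 gene of 31 lists, placed by day 7 minus day 4 (log2) in EGFP podocytes; red points are called, bars are list medians and the dashed line is the median of all genes, -0.07. The contractile list has the highest median, 1.07, and the heat shock and chaperone list the lowest, -0.38.

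Some chaperones of the endoplasmic reticulum fell. Of 29 heat shock and chaperone genes 6 fell and 0 rose by limma (17 had an unadjusted p under 0.05), with a median of -0.38. Of the 29, 9 were above 0, none of them called, among them the heat shock genes Hspa1a (1.66), Hspb1 (0.90), Dnajb1 (0.84) and Hsp90aa1 (0.53). The heat shock genes Hspa8 (-0.12), Hsp90ab1 (-0.12) and Hspb8 (-0.63) were below 0, also not called. Sdf2l1, a luminal cofactor, read 2.81, 2.71, 2.26 and 3.30 at day 4 and 1.07, 1.57, 1.08 and 1.29 at day 7 (-1.52, SE 0.36, limma adjusted p = 0.012). The major chaperone Hspa5 read 7.79, 7.17, 7.48 and 7.55 at day 4 and 6.82, 6.87, 6.71 and 7.06 at day 7 (-0.63, SE 0.14, limma adjusted p = 0.0065). In both genes the days did not overlap, though under quantile normalization Hspa5 lost its call. Manf fell by 1.12, Creld2 by 0.89 and Canx by 0.39, and Xbp1, a transcription factor and not a chaperone, by 0.57. This count rested on few arrays: 3 fell without both MC221 arrays or without day 4 mouse MC151, and 2 without day 4 mouse MC823 or day 7 mouse MC824. Sdf2l1 was not called without day 4 mouse MC823, at -1.34. Manf and Creld2 were not called without any 1 of day 4 mice MC151 and MC823 and day 7 mouse MC824, nor Manf without MC221. Xbp1 was lost without day 4 mouse MC151 or day 7 mouse MC221 or MC824 (-0.55 to -0.45), and Canx with any array but day 4 mouse MC151 or day 7 mouse MC791 left out (-0.42 to -0.33).

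The promoters of these genes are shown for one feature, the endoplasmic reticulum stress element, a CCAAT box and a CCACG box 9 bases apart, searched on both strands. It was chosen after the chaperones were seen to fall. In RefSeq promoters (GRCm38.p6, 250 bases before to 50 after the start) it was present in 3 of the 5 fallen genes of the chaperone list that had a promoter to search. It was in 5 of 208 genes that fell (2.40%), in 0 of 348 that rose and in 20 of 12406 genes tested (0.161%). The 3 chaperones are among the 5 fallen genes with a match. Chaperones that did not fall were not counted apart, so the share does not tie the element to the fall. The match is in capitals and the sequences are 5′ to 3′ toward the gene:
Hspa5, chr2:34771965-34772089, plus strand: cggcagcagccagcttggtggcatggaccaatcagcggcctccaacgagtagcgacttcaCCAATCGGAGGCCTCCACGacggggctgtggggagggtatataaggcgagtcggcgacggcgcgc
Creld2, chr15:88819460-88819598, plus strand: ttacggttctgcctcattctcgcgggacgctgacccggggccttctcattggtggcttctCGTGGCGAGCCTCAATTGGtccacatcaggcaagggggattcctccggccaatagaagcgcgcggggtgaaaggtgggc
Canx, chr11:50325740-50325878, minus strand: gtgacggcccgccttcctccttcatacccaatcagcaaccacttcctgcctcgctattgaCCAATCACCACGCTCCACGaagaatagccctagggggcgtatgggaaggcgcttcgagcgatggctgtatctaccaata

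The same search for the NF-kB motif matched 5 of 9 promoters of the NF-kB and chemokine genes that rose, against 39 of 348 of all genes that rose (11.2%), 15 of 208 that fell (7.21%) and 757 of 12406 tested (6.10%). That list was put together from NF-kB components, targets and chemokines. Its members that did not rise were not counted apart, so the share does not tie the motif to the rise. The AP-1 motif TGANTCA was in 12.4% of promoters of genes that rose, 3.85% of those that fell and 6.82% of those tested. The TEAD motif GGAATG was in 19.5, 15.4 and 15.1%, and the SRF CArG box in 2.59, 1.44 and 1.77%. A pair of the NF-kB matches, in Cxcl10 and Csf1, is shown in capitals:
Cxcl10, chr5:92348979-92349108, minus strand: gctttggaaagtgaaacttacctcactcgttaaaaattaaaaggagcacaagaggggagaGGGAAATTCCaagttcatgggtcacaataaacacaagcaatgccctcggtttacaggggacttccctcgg
Csf1, chr3:107760554-107760683, minus strand: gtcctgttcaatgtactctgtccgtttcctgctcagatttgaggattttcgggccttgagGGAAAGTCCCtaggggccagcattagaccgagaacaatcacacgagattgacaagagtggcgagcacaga
These matches describe the sequence and are not evidence of binding.

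The deepest falls were led by a receptor. The endothelin receptor Ednra read -2.51, -3.64, -2.87 and -2.13 at day 4 and was not well above background in any day 7 mouse, at least 3.69-fold lower (limma adjusted p = 1.6e-05). The extracellular superoxide dismutase Sod3 read 4.84, 4.57, 4.32 and 4.28 at day 4 and 2.14, 2.19, 2.24 and 2.06 at day 7 (-2.35, SE 0.22, limma adjusted p = 2.2e-07), without overlap. The potassium channel Kcna6 fell by 2.32 and the phosphodiesterase Pde10a by 2.14. Vegfa, the growth factor that sustains glomerular capillaries, fell by 0.75 (limma adjusted p = 0.01), a call lost without day 7 mouse MC943 at -0.67. Derl3, of protein disposal in the endoplasmic reticulum, fell by 2.50, but its call was lost without any 1 of day 4 mice MC151, MC692 and MC823 and day 7 mice MC791, MC824 and MC943 (-2.59 to -2.18).

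Day 4 also held genes that did not last. The 10 largest rises from day 0 to day 4 among genes lower again at day 7 were Epha8, P2rx7, Gys2, Tmem179, Spon2, Thbd, Fgd2, Tmprss9, Slc2a4 and Ednra. Both differences use the same day 4 arrays, so their opposite signs are no test, and the values are given side by side. The membrane protein gene Tmem179 averaged -0.96 at day 0 and read 2.86, 2.49, 1.61 and 2.23 at day 4, then -2.19, -0.58, -0.85 and -0.90 at day 7. Fgd2, a guanine nucleotide exchange factor, averaged -5.72 at day 0 and -3.04 at day 4 and was below background in all day 7 mice. The insulin-responsive glucose transporter Slc2a4 averaged -1.47, 1.09 and -1.32 on the 3 days, though its rise to day 4 missed the threshold (limma adjusted p = 0.052).

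Other genes came only part of the way back. The ATP-gated channel P2rx7 averaged -3.0 at day 0, 3.05 at day 4 and 1.38 at day 7, and the ephrin receptor Epha8 -6.20, 0.06 and -2.81. At day 7 P2rx7 was still above day 0, by 4.38 (limma adjusted p = 3.8e-08). Epha8 was well above background in all 4 day 7 mice and in 0 of 4 day 0 mice. The thrombin cofactor thrombomodulin (Thbd) averaged -0.37, 2.34 and 0.63. Several of these falls rested on single arrays. That of Epha8 was not called without day 4 mouse MC151 or MC692 or day 7 mouse MC943 (-2.68 to -2.45). That of Slc2a4 was lost without day 4 mouse MC692 or day 7 mouse MC791 or MC943 (-2.29 to -2.17), and that of Gys2 without day 4 mouse MC151 or day 7 mouse MC791 or MC943 (-2.78 to -2.52). That of Spon2 was lost with any array but day 4 mouse MC822 or day 7 mouse MC221 left out (-1.87 to -1.58), and that of Thbd with any but day 7 mouse MC824 (-1.81 to -1.46). P2rx7 was not called without day 4 mouse MC692, at -1.36, or without both MC221 arrays, at -1.54. Gys2 was measured in 1 of 4 day 7 mice, another probe of it differed by 0.08, and as the mean of its probes it was not called (-1.46). With normexp background correction Fgd2, Tmprss9, Epha8 and Gys2 lost theirs.

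The transient genes were not alike in the TdTomato cells of the same mice. At day 4 P2rx7 averaged 8.95, Epha8 7.73, Tmprss9 5.77 and Gys2 3.66 there, all above the EGFP means of 3.05, 0.06, -1.91 and -2.65. Tmem179 (1.01), Spon2 (-1.36), Slc2a4 (-0.24), Thbd (1.44) and Ednra (-4.05) averaged below the EGFP means of 2.30, 0.44, 1.09, 2.34 and -2.79, and Fgd2 was close in both (-2.61 against -3.04). Whether TdTomato RNA carried into the EGFP sort adds to the first 4 was not tested.

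**Figure D4:**
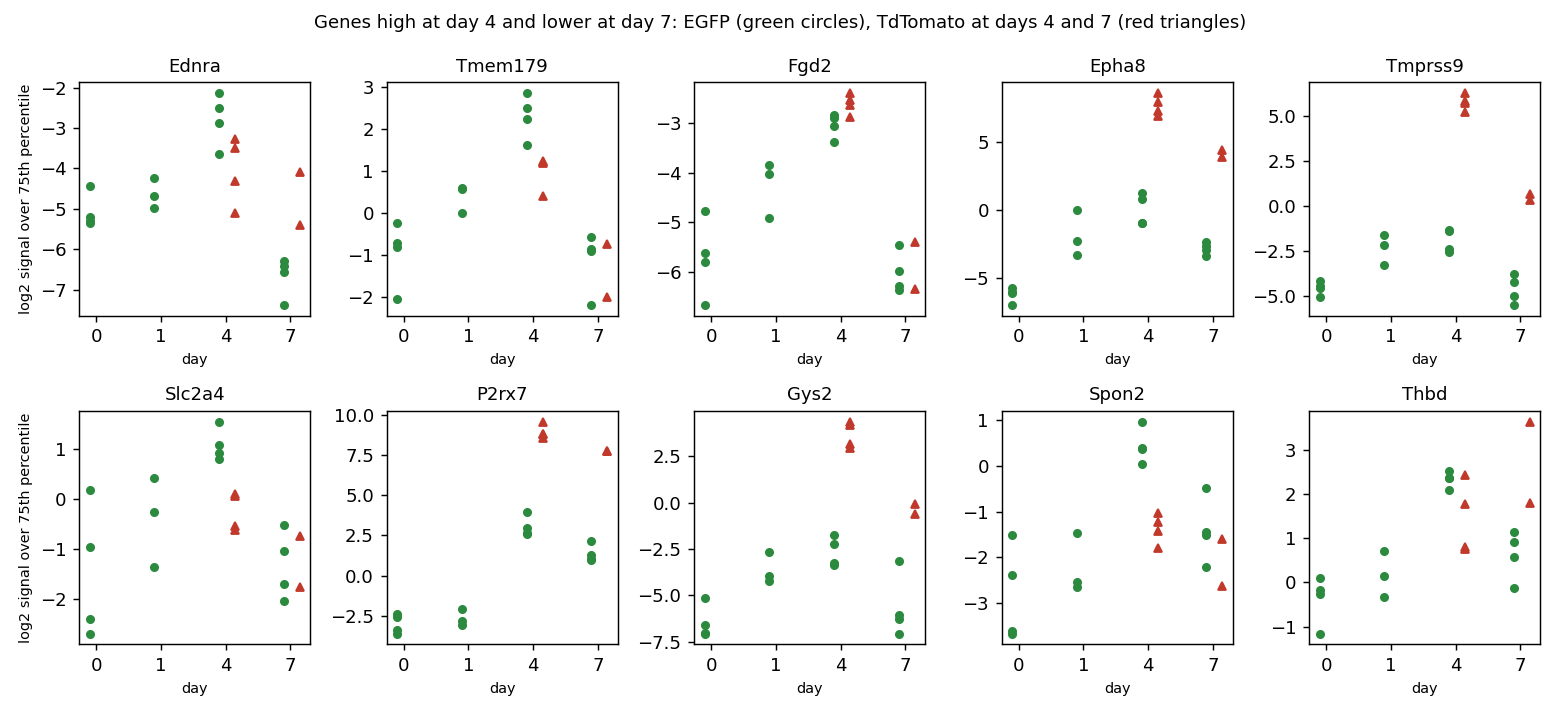
Each point is 1 mouse (x axis: day after LMB2; y axis: log2 signal over the array's 75th percentile), green circles for EGFP and red triangles for TdTomato cells at days 4 and 7. All 10 genes peak at day 4 in EGFP cells; in TdTomato cells P2rx7, Epha8, Tmprss9 and Gys2 stand well above them at day 4 and Spon2 and Slc2a4 below.

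Other strong day 4 rises were not called lower at day 7 in the fit over all 29 arrays. Thbs4, a thrombospondin of the matrix, was not well above background at day 0 and went to a mean of 1.36 at day 4 and 0.44 at day 7, and the last difference of -0.92 did not pass (limma adjusted p = 0.22). Col22a1, Efcab3 and Prm1 differed by -0.66, -1.18 and -1.66 from day 4 to day 7, none of them called, and Crct1 and Col5a3 rose further. With slide as a block Thbs4 (-1.06) and Prm1 (-1.54) were called lower, and Prm1 was also called with only the groups compared. In TdTomato cells at day 4 Thbs4, Prm1, Col22a1 and Efcab3 averaged 7.62, 5.87, 4.82 and 4.60, above the EGFP means of 1.36, -1.46, -2.56 and -2.0, and the part of carried TdTomato RNA was not tested.

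The step from day 4 to day 7 was set against the same step in TdTomato cells, where day 7 has 2 mice, 1 of them MC221, whose array identity is not settled. The difference between the steps was above 0 for 1238 genes (7.92%) and below 0 for 737 (4.72%), with a median over all genes of -0.24. Without both MC221 arrays, which leaves 1 TdTomato day 7 mouse assumed to vary like the other groups, 678 and 212 were called, and without TdTomato day 7 mouse MC791 750 and 166. EGFP and TdTomato cells of a mouse are paired: with the mouse as a replicate block 2498 differences were above 0 and 3871 below, and with slide as a block 2022 and 2799, so the balance of directions turned over. Des, Col5a3 and S100a6 moved by 2.40, 4.47 and 4.53 in EGFP cells, and the difference between the steps was -0.05 (95% interval -0.89 to 0.80) for Des, 0.15 for Col5a3 and -0.04 for S100a6. For Timp1, which rose by 3.45 in EGFP and 2.33 in TdTomato cells, it was 1.12 (95% interval 0.05 to 2.18, limma adjusted p = 0.15). The step differences of these genes are from the fit that leaves out the pairing. Day 7 mice MC824 and MC943 have no TdTomato array, and they read 2.07 and 2.40 for Des in EGFP cells. MC221 and MC791 read 1.30 and 1.64 in EGFP and 0.86 and 1.28 in TdTomato cells.

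Icam1, Bcl3, Tgfb2 and Cxcl10 had a larger step in EGFP cells. Icam1 averaged 1.24 in TdTomato cells at day 4 and -0.23 at day 7, so the step difference was 5.94 (SE 0.88, limma adjusted p = 0.00011), a fitted value and no exact size, as its EGFP day 4 signal was not well above background. For Bcl3 it was 5.23, for Tgfb2 3.90 and for Cxcl10 3.50, and all of these were already high in TdTomato cells at day 4, with means of 5.28, 3.27 and 5.09. By day 7 the EGFP means were 3.07, 3.58 and 4.61 and the TdTomato means 2.24, 3.40 and 4.85. For the ligands Tgfb3 and Bmp4 it was 0.74 and 1.07, not called (limma adjusted p = 0.4 and 0.23). That fit leaves out the pairing, so these non-calls do not show that the steps were alike. The step difference was 5.70 for Pkp1, measured in 2 of 4 EGFP day 4 mice, where TdTomato cells fell, and -2.98 for Thbd. Others of the largest differences involve probes not well above background and have no exact size. Dner and Ptprn were measured in all 4 TdTomato day 4 mice, in 0 of 2 at day 7 and in at most 1 of 4 EGFP mice of either day. Pf4 was measured in 0 of 4 EGFP mice on both days, in 1 of 4 TdTomato mice at day 4 and in 2 of 2 at day 7. Hcar1 read -6.01 and -0.50 in the 2 TdTomato day 7 mice, so its difference rests on 1 mouse. Ednra was not well above background in EGFP cells at day 7. Nphs1 differed by -1.01 (limma adjusted p = 0.014), as TdTomato cells averaged 6.27 at day 4 and 6.86 at day 7.

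**Figure D5:**
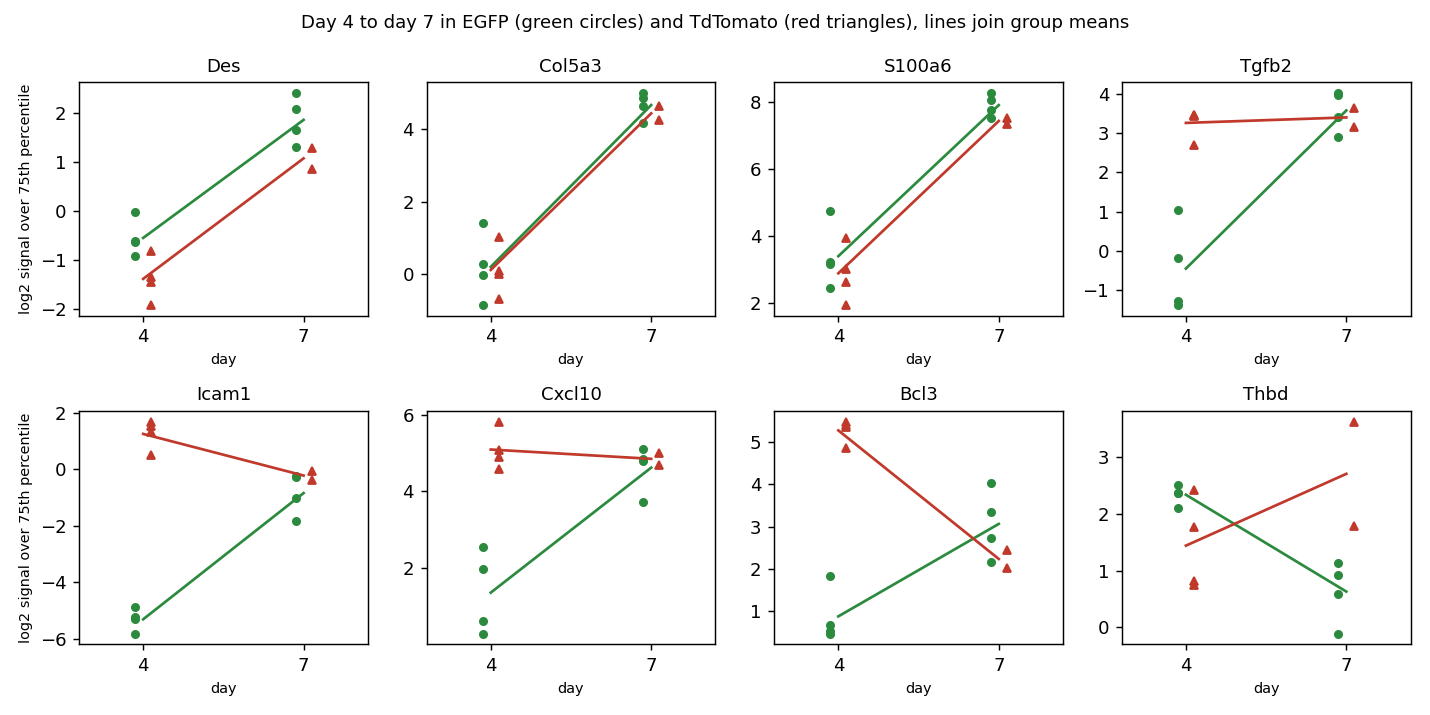
Points are mice and lines join group means at days 4 and 7 (y axis: log2 signal over the array's 75th percentile), green for EGFP and red for TdTomato cells. Des, Col5a3 and S100a6 rise alongside in both populations, whereas Tgfb2, Icam1, Cxcl10 and Bcl3 rise in EGFP cells from far below the TdTomato level of day 4.

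Markers of other kidney cells are set beside the share over all genes, of which 2.96% rose and 1.72% fell. At those shares lists this short would hold few calls, so the counts are no result about these cells. Of 15 endothelial, 10 distal nephron and 9 lymphocyte genes 0 were called by limma (0, 1 and 1 had an unadjusted p under 0.05). In the other lists 1 of 17 proximal tubule genes (Gatm) fell by 1.96, and 1 of 12 parietal epithelial genes (Cd44) rose by 1.25. The summed distal nephron signal ran from 2.57 to 47.0 in day 7 mice against 5.42 to 16.5 in day 4 mice. The podocyte list summed to 2560 to 3570 at day 4 and 2140 to 2670 at day 7, and 1 of its 12 genes (Thsd7a) fell. All 12 were below 0 (5 had an unadjusted p under 0.05), with a median of -0.36 against -0.07 for all genes and of -0.36, -0.34 and -0.17 within slides 1, 2 and 3.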

How the data were processed

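RNA from sorted podocytes was labelled with Cy3 and hybridised to one-colour Agilent mouse arrays. Per the file headers, the deposited intensity is Agilent Feature Extraction's background-subtracted processed signal, version 11.5.1.1 per the submitters' processing notes. The authors' deposited matrix of log2 values, of unstated scaling, served as an alternative. The scanner's spot flags, also deposited, set spots aside.

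Signals were logged (log2) and set against the 75th percentile of their array, probes well above background on at least 3 arrays were kept, and the brightest probe stood for its gene, named through RefSeq accessions (26582 probes with 1 symbol, 29099 with none and left out). The test was limma's moderated statistic (limma 3.58.1, R 4.3.3) on group means over all 29 arrays with Benjamini-Hochberg adjustment. In simulated data for this comparison over 15626 genes, changes of 1, 1.5, 2 and 3 were called in 54, 78, 82 and 98%. The changed genes were 200, with 50 of each size. Noise was drawn as independent and normal, with no shared mouse or slide effect and no background limit. The rates therefore need not hold for the arrays. P-values measure the spread between arrays within their groups, where each array is a different mouse. The main fit takes the EGFP and TdTomato arrays of a mouse as independent. Its p-values for the step difference between populations therefore leave out the pairing. The number of arrays limits the precision.

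The 40 gene lists, the members and the rules were chosen with earlier results of these data known. The genes named are 8 fixed ones, the 12 largest rises and falls, at most 4 per list, 10 transient and 10 day 4 genes, 4 step differences each way, and 8 and 4 detection switches; clone names were passed over. A few of them are not reported here. Further genes are list members chosen after their values were seen. The normexp alternative used the median signal, as the mean signal is not in the tables used here. The samples of a mouse deviate together (consensus correlation 0.596), so the mouse was tried as a replicate block; the pairing comes from the mouse named in the labels. Python 3.11.15, pandas 2.3.3 and matplotlib 3.10.9 made tables and figures.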

Additional observations from a re-analysis of the deposited data

Results flagged for a closer look

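At the 95% critical value of Dixon's test, which chance passes in about 1 of 20 groups, 2 of 74 groups of 4 mice held a value apart from the rest. Podxl at day 7 read 6.44 in MC221 and 7.02 to 7.09 in the other mice. Pak3 at day 7 read -1.02 in MC943 and -1.77 to -1.67 in the others.

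The day 4 to day 7 step differed between EGFP and TdTomato cells by limma's interaction test in 1975 genes. Among the named genes the difference, EGFP minus TdTomato, was 6.37 for Dner, 5.94 for Icam1, 5.93 for Ptprn and 5.70 for Pkp1. It was -4.51 for Hcar1, -4.05 for Pf4, -3.17 for Ednra, -2.98 for Thbd, -1.01 for Nphs1 and -0.92 for Synpo. These are fitted values. Dner, Ptprn, Hcar1 and Pf4 were not well above background in most EGFP mice, nor Icam1 at day 4 and Ednra at day 7 in any, so theirs have no exact size, and that of Hcar1 rests on 1 of the 2 TdTomato day 7 mice (-0.50 against -6.01).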

How the results depend on the processing

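All 731 called genes kept their direction under every alternative that tested them. The alternatives use the arrays the genes were called on, so this is no separate test. Of the 105 reported genes of the naming rule that were called, 79 kept the call with each of the 8 arrays left out and 64 under all 19 alternatives. Leaving out 1 array gave 333 to 460 genes higher, 153 to 216 lower, 25 to 55 detected only at day 7 and 4 to 19 detected only at day 4. The step difference between populations gave 916 to 2296 genes, the TdTomato arrays having been added to this exercise after the data were seen. With only the groups compared in the fit 150 genes were lower. With slide as a block 791 were higher, 1053 lower and 4821 differed in step. With the mouse as a replicate block 6369 differed in step, and without both MC221 arrays 890. The cause of the changes in the counts other than detection was not tested.

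The named genes whose sign changed were not called. Podxl was 0.13 in the authors' values, 0.15 without both MC221 arrays, 0.04 under quantile normalization, 0.11 with the slide block and -0.15 to 0.15 with arrays left out. Synpo was 0.14 as the mean of its probes. Dner was -0.27 to 0.15 with arrays left out. Ptprn was -0.09 in the authors' values, -0.28 without both MC221 arrays and -0.28 to 0.83 with arrays left out. A gene not well above background has only a bound, and 48.2 to 55.9% of spots passed that level.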

Other observations

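These genes were picked after their values were seen. Gpd1, the glycerol phosphate dehydrogenase, read 5.77, 5.27, 5.82 and 5.43 at day 4 and 3.37, 3.66, 4.39 and 4.06 at day 7, a fall by 1.70 (limma adjusted p = 0.0012). Pyruvate kinase (Pkm) fell by 0.85, Pdk2 by 0.92 and the respiratory subunit Cox7a1 by 1.41, while Pdk4, which restrains pyruvate oxidation, rose by 1.68. The innate receptor Tlr2 rose by 3.37, the oncostatin receptor Osmr by 3.09 and the natriuretic peptide Nppa by 2.12.

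The clock genes Dbp and Arntl varied within a day. Dbp read 5.31, 2.43, 7.31 and 5.49 in the day 7 mice and Arntl 1.26, 2.07, -3.59 and 0.66, so mouse MC824 was highest for the first and lowest for the second. Their day 7 minus day 4 differences were -0.80 and -0.60 (limma adjusted p = 0.83 and 0.87).

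Over the 463 genes called higher, the median level relative to the day 4 mean was 0.31 in day 4 mouse MC822 and -0.21 to 0.02 in the other 3, against 1.46 to 1.87 in the day 7 mice. These genes were called on the same arrays, so this is a description.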
